A study of Mus musculus with 6 samples.

Results

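The Delta and Jagged ligands of Notch were read from every probe that the array's scanner files name as Dll1, Dll3, Dll4, Jag1, Jag2 or Dlk1. That rule took 9 probes of 6 genes, out of 55681 probes under 34821 gene names of the array's design. The study set out to examine Dll1 between mammary stem cells and the macrophages around them, and it used 6 two-colour arrays of mouse RNA. One pair of arrays held CD24+ CD29-high mammary cells, a basal fraction that the labels call MaSC (mammary stem cells), from Dll1-mCherry reporter mice on C57/B6. These cells were sorted by the reporter into Dll1-high (mCherry+) and Dll1-low (mCherry-) fractions, with 1 array each. The other 4 arrays held F4/80+ mammary macrophages, taken from conditional Dll1 knockout mice (cKO-Dll1 on C57/B6, KO, 2 arrays) and of their wild type C57/B6 littermates (WT, 2 arrays).

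All cells came from virgin females. The labels give neither an age, nor the cell type or Cre line in which Dll1 was deleted, nor the exons removed, nor whether the 2 replicates were separate animals. The p-values below therefore measure only the spread between these samples, which may be technical. On every array Cy5 marked the sample and Cy3 marked a common reference RNA, pooled from 11 cell lines of mouse. No array had the dyes swapped. A level below is the log2 ratio of Cy5 over Cy3 after background correction and loess normalization (a smoothing that centres each array's ratios along the range of signal), so 0 means equal signal in the sample and in the reference RNA. With 6 arrays in all, their number limits the precision of every value.

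Notch ligands are membrane proteins that bind Notch receptors on a neighbouring cell, and their uptake by the sending cell exposes the receptor to cleavage, which frees an intracellular fragment that acts in the nucleus. Dll1 and Dll4 of the Delta family and Jag1 and Jag2 of the Serrate family activate Notch in this way. Dll3 is a divergent Delta protein that does not activate receptors on neighbouring cells, and Dlk1 (Pref-1) resembles the Delta proteins but lacks the DSL domain by which they bind Notch. In the mammary gland, Notch signalling is known for its part in the choice between basal and luminal fate.

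The 9 probes are shown so that each value can be traced to the stretch of the gene that was read. Whether the stretch set the differences between probes of a gene was not tested. Each is 60 bases long, is given 5′ to 3′ in lower case on the strand named, and is placed on mm9, all as the scanner files give it. The first 30 bases are printed for 7 probes and all 60 for the first Dll3 probe and the second Dlk1 probe. No gene annotation of mm9 was used here, so exon and UTR are not stated.
Dll1, first probe, chr17:15504623-15504682, minus strand: gattactatgagccagtctttccttgaact
Dll1, second probe, chr17:15513726-15513785, minus strand: acactatccggaccccaattccccatttcc
Dll4, chr2:119160779-119160838, plus strand: tttgcccagactccatcctcacagctgggc
Jag1, chr2:136907433-136907492, minus strand: ggagtattctcataagctagttgaatactt
Jag2, chr12:114146887-114146946, minus strand: ttgtataaattattcaacggctgtcaggcg
Dll3, first probe, chr7:29079061-29079120, minus strand: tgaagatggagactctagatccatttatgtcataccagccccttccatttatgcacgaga
Dll3, second probe, chr7:29078763-29078822, minus strand: gaaagggctttattgtacatattgcttatt
Dlk1, first probe, chr12:110698721-110698781, plus strand: tacacatattgtcttgtgttgctggtgcca
Dlk1, second probe, chr12:110698502-110698561, plus strand: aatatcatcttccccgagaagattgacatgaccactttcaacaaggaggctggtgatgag
For each gene the first probe is the one of highest mean signal. The starts of the paired probes lie 9103 bases apart for Dll1, 298 for Dll3 and 219 for Dlk1. The first Dll1 probe begins at base 3063 of a RefSeq transcript of the gene, and the second was designed to another, Ensembl transcript. Of these 9, only the first Dll1 probe is spotted 10 times on the array.

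The scanner software called 86.0% and 88.1% of Cy5 spots well above background on the Dll1-high and Dll1-low arrays, and 47.4% to 71.9% on the macrophage arrays. One macrophage array stood apart. WT replicate 1 correlated with WT replicate 2 at 0.423 over probes, while KO replicate 2 correlated with WT replicate 2 at 0.944 and with KO replicate 1 at 0.713. The 8 macrophage markers, all detected on every array, had median ratios (log2) of 4.18 and 4.43 in KO replicates 1 and 2, 2.03 and 4.00 in WT replicates 1 and 2, and 0.12 and 0.14 in Dll1-high and Dll1-low cells. Their summed net Cy5 signal was 105329 and 77229 in KO replicates 1 and 2, against 9383 and 79193 in WT replicates 1 and 2, and 9455 and 10367 in Dll1-high and Dll1-low cells. The 7 basal epithelial markers had a median of 3.83 and 3.80 in Dll1-high and Dll1-low cells, and of 0.28 to 1.12 on the macrophage arrays. By their medians, the macrophage and basal lists follow the labelled cell types on 5 arrays. Among the basal markers, Trp63 and Mylk read 1.52 and 1.67 on KO replicate 1. That was above Dll1-high and Dll1-low cells, at 0.47 and 0.77 for Trp63 and 1.02 and 1.08 for Mylk. Krt5, Krt14, Acta2, Myh11 and Oxtr were lower on every macrophage array than in the basal cells. On WT replicate 1 the macrophage markers had the lowest ratio of the macrophage arrays and a summed signal no higher than in the basal cells. On both WT arrays the macrophage median was below that of the 7 endothelial markers, 3.83 on replicate 1 and 4.33 on replicate 2. Per the file headers, the macrophage slide carried the replicate 1 arrays in its first row and the replicate 2 arrays in its second, so differences are also given within each row. Both KO arrays lay in slide column 4 and both WT arrays in column 3, so slide column and genotype cannot be told apart. The same holds for the sorted fractions, with Dll1-high in column 3 and Dll1-low in column 4.

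**Figure D1:**
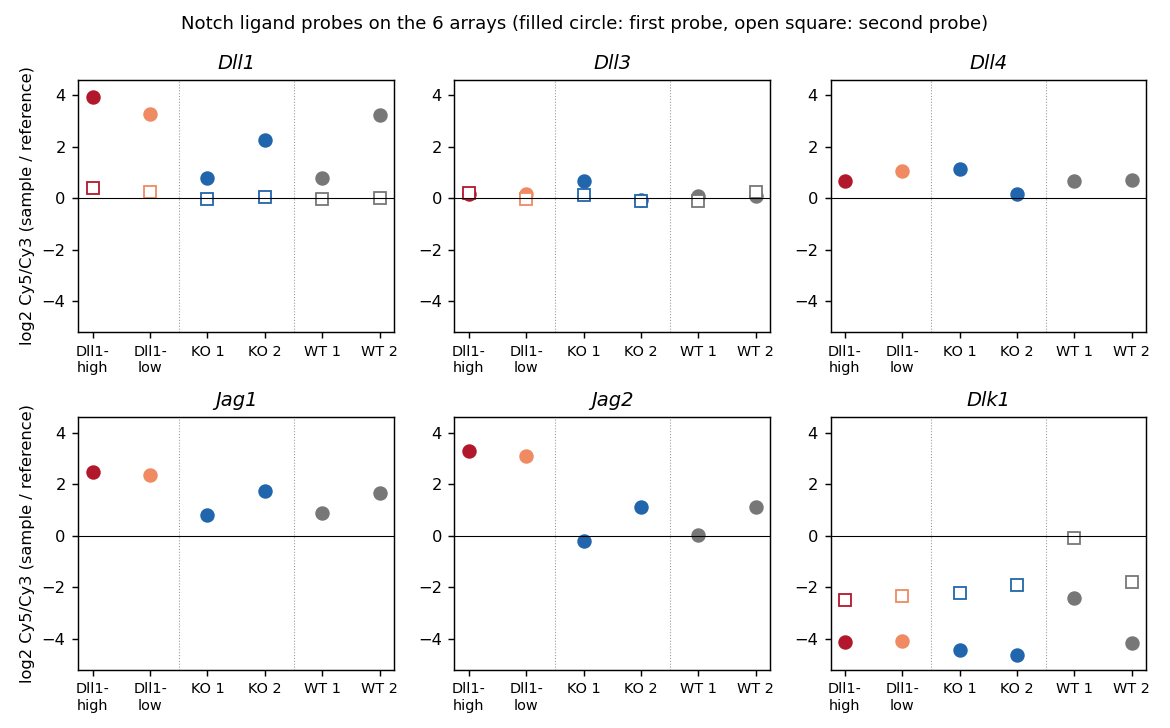
Log2 ratio of sample (Cy5) over reference RNA (Cy3) for each ligand on the 6 arrays, with a filled circle for the first probe and an open square for the second. Dll1, Jag1 and Jag2 stand highest in the basal cells by their first probes (Dll1 by 0.02, and not with the scanner's processed signals), Dll3 stays near 0, and Dlk1 lies below 0 on every array (at -0.07 for its second probe on WT replicate 1), with WT replicate 1 highest for both of its probes.

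Dll1, the ligand behind the reporter and the knockout, differed between replicates of a genotype by more than it differed between genotypes. Its first probe read 0.80 and 2.25 in KO macrophages, against 0.78 and 3.24 in WT macrophages, for replicates 1 and 2 in that order. Both replicate 1 arrays were low, both replicate 2 arrays were high, and the groups overlapped. KO minus WT was -0.49 (SE 1.03, 95% interval -3.29 to 2.32, limma adjusted p 0.9997). The difference was 0.02 between the arrays of the first slide row and -0.99 between those of the second, so the wild type excess of the mean came from the second row. The interval spans changes of several-fold either way, and the data therefore do not settle whether Dll1 RNA was lower in KO macrophages. In sorted cells, fewer cells that express a gene and less RNA per cell cannot be told apart.

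The spots of the first Dll1 probe show how far the array itself limits these values. The 10 spots ranged over 0.55 to 1.05 in KO replicate 1 and over 1.76 to 2.44 in KO replicate 2. They ranged over 0.55 to 1.01 in WT replicate 1 and over 3.04 to 3.50 in WT replicate 2. The spots of KO replicate 1 and WT replicate 1 covered nearly the same range, and those of the replicate 2 arrays did not overlap. Spots of 1 array share its RNA and labelling and are not replicates of a genotype.

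**Figure D2:**
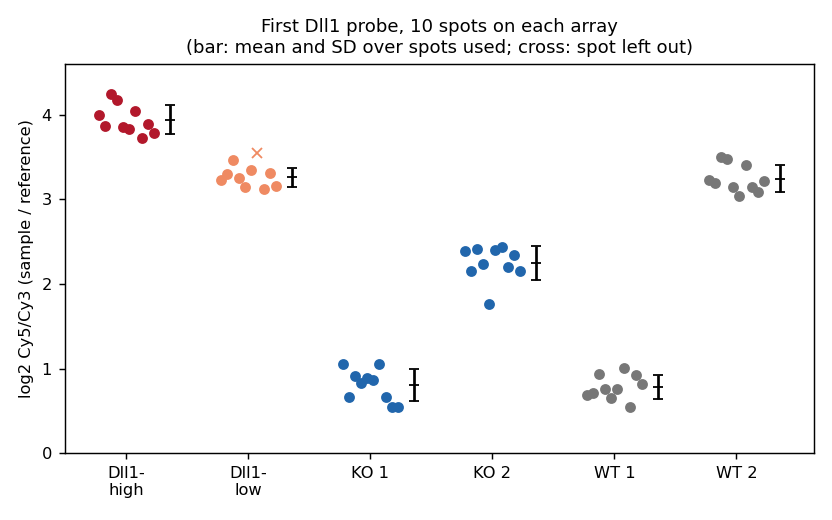
Log2 ratio of each of the 10 spots of the first Dll1 probe on each array, with the mean and SD over the spots used and a cross for the spot left out. The spots lie close together within an array, while replicates 1 and 2 of either macrophage genotype are far apart, by 1.45 in KO and 2.46 in WT macrophages.

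In the basal cells the sort was made on a Dll1 reporter, so the Dll1 reading there checks the labels and is no finding. The first probe read 3.94 in Dll1-high cells, against 3.26 in Dll1-low cells. The difference was 0.68 (SD 0.13 over 9 spots, from 0.49 to 0.92), or 1.60-fold, and ranked 179 of 49669 probes compared. Its direction goes with the labels. Net Cy5 signal was 6772 in Dll1-high and 3540 in Dll1-low cells, while the reference RNA gave 283 and 214 on the same 2 arrays. The Dll1-low cells were therefore not without Dll1 RNA: their ratio was at the level of WT macrophage replicate 2, the highest of the macrophage arrays.

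After loess, the second Dll1 probe did not follow the first among the macrophages. It read -0.01 and 0.04 in KO macrophages, against -0.03 and 0.02 in WT macrophages, with a KO minus WT of 0.02 (SE 0.29, limma adjusted p 0.9997). Its Cy5 was not well above background on both replicate 2 arrays, the arrays on which the first probe was high. On the basal arrays it read 0.38 in Dll1-high and 0.25 in Dll1-low cells, a difference of 0.14 in the direction of the first probe. After loess, the range over the 6 arrays was 0.42 for the second probe, against 3.16 for the first. By the scanner's processed signals, replicate 2 of the second probe was above replicate 1 by 0.50 in KO and 0.45 in WT macrophages. The first probe gave 2.09 and 2.74 by those signals, in the same direction. How far the 2 probes differed among the macrophages thus depended on the processing.

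Dll4, a Delta ligand known from endothelium and its vessel sprouts, gave weak signal on all arrays. It read 1.13 and 0.18 in KO macrophages, against 0.67 and 0.70 in WT macrophages. The WT values lay between the KO values, and KO minus WT was -0.03 (SE 0.44, 95% interval -1.22 to 1.17, limma adjusted p 0.9997), with 0.46 in row 1 of the slide and -0.51 in row 2. With the scanner's processed signals Dll4 read 2.69 and 1.05 in KO, against 2.07 and 2.89 in WT macrophages. WT replicate 2 was then the highest, and KO minus WT was -0.61, with 0.62 in row 1 and -1.84 in row 2. Cy5 was not well above background on KO replicate 2, and Cy3 was not on KO replicate 1 and WT replicate 2. The 7 endothelial markers, of which 6 or 7 were detected on each array, had median log2 ratios of 2.75 and 2.77 in KO, against 3.83 and 4.33 in WT macrophages, and of 1.76 and 2.02 in Dll1-high and Dll1-low cells. Their summed net Cy5 signal was 5282 to 9912 in KO and 6780 to 20096 in WT macrophages. Cdh5 (VE-cadherin), a defining endothelial gene, read 3.97 and 4.42 in KO and 5.96 and 6.66 in WT macrophages. Pecam1, Esam, Ptprb and Plvap were likewise higher on both WT arrays than on either KO array. Kdr and Tek overlapped between the groups. Kdr read 0.39 and -0.12 in KO, against 1.91 and 0.07 in WT macrophages. Tek read 0.63 and 1.42 in WT macrophages, and the lower of these lay between the KO values. The part of endothelial cells in the Dll4 values was not tested.

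Among the sorted basal cells, Dll4 read 0.65 in Dll1-high and 1.08 in Dll1-low cells. The difference of -0.42 was the largest of the ligands below 0, and its size was above that of 92.8% of the probes compared. As a scale of the noise within arrays only, the difference between these 2 arrays had an SD over spots of 0.11 in the median of 375 probes spotted 10 times, with 0.24 at the 95th percentile. Net Cy5 for Dll4 was 346 in Dll1-high and 501 in Dll1-low cells. There is no replicate check of this difference.

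Jag1 and Jag2, the Serrate-type ligands, were high in the basal cells, and KO and WT macrophages gave close values within a slide row. Jag1, which also acts in vessels and in many epithelia, read 0.82 and 1.72 in KO macrophages, against 0.86 and 1.64 in WT macrophages. The KO minus WT difference was 0.02 (SE 0.50, 95% interval -1.35 to 1.39, limma adjusted p 0.9997), with -0.04 in the first row and 0.08 in the second. Jag2 read -0.20 and 1.1 in KO macrophages, against 0.03 and 1.1 in WT macrophages. Its KO minus WT was -0.11 (SE 0.65, 95% interval -1.88 to 1.66, limma adjusted p 0.9997), with -0.23 in the first row and 0.00 in the second. For both genes the replicates were split by row, and the groups overlapped.

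The closeness of Jag1 within rows depended on the normalization. Before loess, Jag1 was 1.69 higher in KO than in WT in the first row and -0.11 in the second, since the loess step moved WT replicate 1 up by 1.51 and KO replicate 1 by -0.22. Net Cy5 for Jag1 was 670 and 775 in KO, against 268 and 782 in WT macrophages. Net Cy3 was 300 and 390 in KO, against 465 and 372 in WT macrophages. WT replicate 1 thus had the lowest sample signal and the highest reference signal of the 4. With each array only centred on its median, KO minus WT for Jag1 was 0.88, beside a median of 0.39 over all probes tested.

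**Figure D3:**
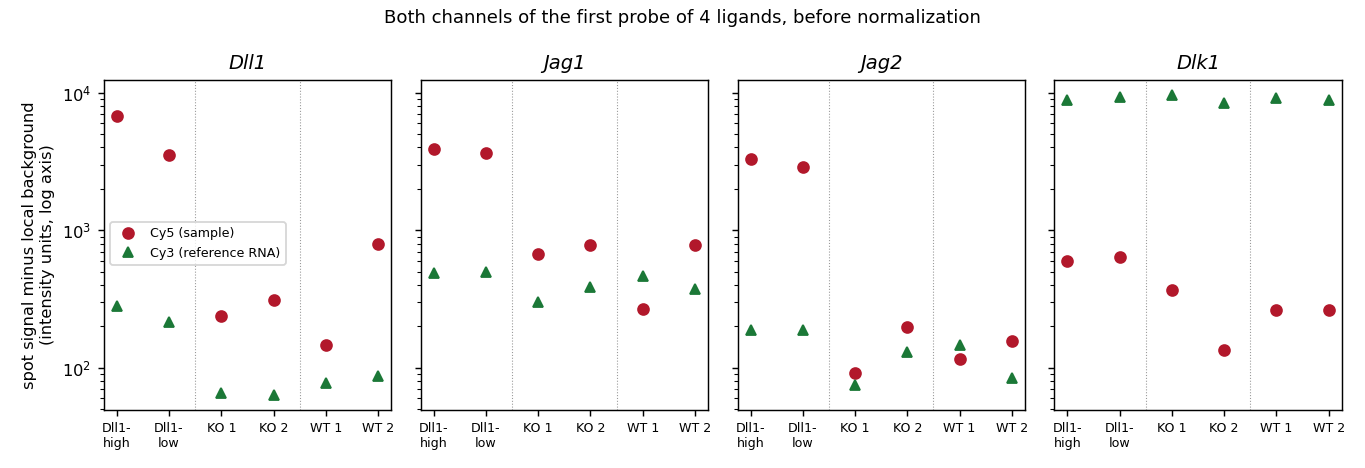
Spot signal minus local background in both channels, on a log axis in intensity units, for the first probe of Dll1, Jag1, Jag2 and Dlk1 on each array, before normalization. The Cy5 signal of Jag2 is 3286 and 2875 in the basal cells and at most 197 on the macrophage arrays, and Dlk1 has Cy3 of at least 8401 on every array.

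Dll1 by its first probe, Jag1 and Jag2 shared a pattern over the 4 macrophage arrays. Replicate 2 was above replicate 1 by 1.45 in KO and 2.46 in WT for Dll1, by 0.90 and 0.78 for Jag1, and by 1.30 and 1.07 for Jag2. Such an excess of over 0.5 in both genotypes was found for 9.35% of the probes tested. Dll3, Dll4, Dlk1 and the second Dll1 probe (0.06 in KO and 0.05 in WT) did not share it. With the scanner's processed signals the excess of the second Dll1 probe was 0.50 in KO and 0.45 in WT. Before loess the excess was 0.36 in KO and 1.96 in WT for Dll1, 0.26 and 0.94 for Jag2, and -0.13 and 1.67 for Jag1. Slide row, replicate number and any difference between the samples of one number cannot be told apart.

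Between the cell types, the basal cells were above all 4 macrophage arrays for 4 of the 9 probes, both of Dll1 and those of Jag1 and Jag2, against 15.4% of all probes detected in Cy5 on 1 basal or 2 macrophage arrays or more. Jag2 gave the widest gap. It read 3.29 and 3.08 in Dll1-high and Dll1-low cells, and the lower of these was 1.98 above the highest macrophage array. Jag1 read 2.45 and 2.34, and the gap was 0.63. For the first Dll1 probe the gap was 0.02, between Dll1-low cells and WT replicate 2, and the scanner's own processed signals turned it round, with 3.71 in Dll1-low cells and 4.25 in WT replicate 2. The processed signals kept Jag1, Jag2 and the second Dll1 probe above, 3 of the 9 probes. Before loess the count was 7 of 9, with both Dlk1 probes and the second Dll3 probe added, and the first Dll1 probe read at least 3.88 in the basal cells and at most 2.72 in the macrophages. Basal cells and macrophages were hybridised on different slides, so an effect of slide and one of cell type cannot be told apart, and no test was made between them.

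Jag1 and Jag2 were also set side by side between the sorted fractions. Dll1-high minus Dll1-low was 0.11 for Jag1, with net Cy5 of 3931 and 3673, and 0.21 for Jag2, with net Cy5 of 3286 and 2875. With 1 array a side, these differences have no replicate check. At least 2-fold differences were found for 39 probes higher in Dll1-high cells (0.0785% of those compared) and 38 lower (0.0765%), and no ligand probe was among them. Of the 9 ligand probes, 5 were higher in Dll1-high cells, among them both of Dll1, the gene of the sort, against 44.6% of all probes compared.

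Dll3 was near the level of the reference RNA throughout. Its first probe read 0.66 and -0.05 in KO macrophages, against 0.10 and 0.09 in WT macrophages, and the KO minus WT difference was 0.21 with an SE of 0.38 (limma adjusted p 0.9997). The difference was 0.56 in the first row and -0.14 in the second, so only KO replicate 1 stood off. Its second probe was not well above background on 3 of the 4 macrophage arrays and was not tested. In the basal cells the probes read 0.15 and 0.21 in Dll1-high cells, against 0.18 and -0.04 in Dll1-low cells. The differences were -0.03 for the first probe and 0.25 for the second, which do not share a sign.

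Dlk1, a marker of preadipocytes and other immature cells, was far below the reference RNA on all arrays by its first probe, and on all but WT replicate 1 by its second. Its first probe read -4.42 and -4.63 in KO macrophages, against -2.42 and -4.17 in WT macrophages. Its second probe read -2.24 and -1.92 in KO, against -0.07 and -1.78 in WT macrophages. For both probes the KO arrays lay below both WT arrays, a pattern found in 12.8% of the probes tested, and WT replicate 1 stood far above the other 3 arrays. KO minus WT was -1.23 (SE 0.68, 95% interval -3.08 to 0.61) for the first probe and -1.15 (SE 0.67, 95% interval -2.98 to 0.67) for the second, each with a limma adjusted p of 0.9997. Within the slide rows the first probe differed by -2.00 and -0.46, and the second by -2.17 and -0.14.

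**Figure D4:**
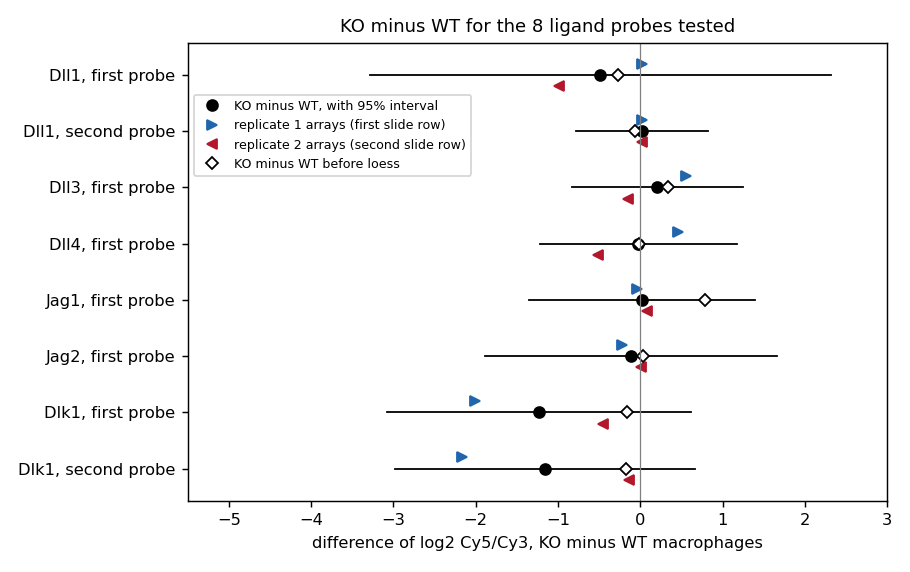
KO minus WT in log2 ratio for the 8 ligand probes tested, with its 95% interval from limma (black), the difference within each slide row (triangles) and the difference before loess (open diamonds). Every interval includes 0, and the Dlk1 probes move most between the settings, with -1.23 and -1.15 after loess and -0.17 and -0.18 before it.

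The size of the Dlk1 difference depended on the normalization and on 1 array. Before loess the first Dlk1 probe read -4.51 and -5.45 in KO macrophages, against -4.84 and -4.79 in WT macrophages, and the groups overlapped. The step moved WT replicate 1 by 2.42, and the other 3 macrophage arrays by 0.09 to 0.82. Dlk1 lies at high signal through the reference channel, where net Cy3 was 9675 and 8401 in KO and 9092 and 8819 in WT macrophages. For the brightest 10% of probes the median shift on WT replicate 1 was 2.56, against 0.10, 0.78 and 0.55 on KO replicate 1, KO replicate 2 and WT replicate 2. Net Cy5 for Dlk1 was 369 and 134 in KO and 265 and 261 in WT macrophages. The 6 fibroblast markers also read highest on WT replicate 1, with median log2 ratios of -1.41 and -1.59 in KO, against 0.81 and -2.04 in WT macrophages. Their summed net Cy5 signal was 32361 and 14508 in KO and 25341 and 14456 in WT macrophages. The 5 adipocyte and preadipocyte markers, of which 3 or 4 were detected on each macrophage array, had their lowest median there. It was 0.37 and 0.92 in KO, against 0.24 and 1.35 in WT macrophages. Adipoq and Plin1 were lowest on WT replicate 1, while Cd36, Lep and Fabp4 (no value on KO replicate 1) were highest on it. The part of either list in the Dlk1 values was not tested. KO minus WT for the first probe was -0.35 without WT replicate 1 and -0.08 with median centring, each in place of -1.23. It was -1.15 with the scanner's processed signals, which carry the dye normalization of the scanner software, and -1.15 in the authors' deposited table. With the processed signals WT replicate 1 was again the highest macrophage array, at -3.24.

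**Figure D5:**
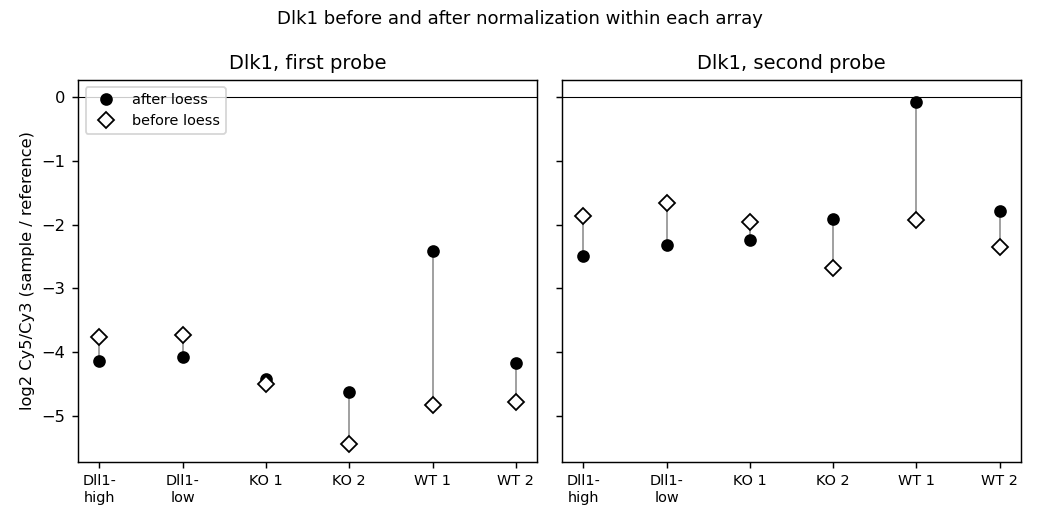
Log2 ratio of both Dlk1 probes on each array before loess (open diamonds) and after it (filled circles), joined by a line. The line is longest for WT replicate 1, where loess moved the first probe by 2.42 and the second by 1.85.

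On the basal arrays the first Dlk1 probe read -4.14 in Dll1-high and -4.08 in Dll1-low cells, and the second read -2.49 and -2.32. The differences, -0.06 and -0.17, were small beside the probe's distance from 0. Cy5 was well above background on every array for both probes, a call met by 47.4% to 88.1% of Cy5 spots per array. Net Cy5 over the arrays was 133.5 to 640.5 for the first probe and 107 to 414 for the second. Net Cy3 was 8401 to 9675 and 817 to 1462.5, so the sample signal was weak beside that of the reference RNA. Whether this Cy5 signal came from Dlk1 RNA was not tested. The second probe was lower in both basal arrays than on all 4 macrophage arrays, as were 17% of the probes detected by the same rule. Before loess this turned round, with at least -1.87 in the basal cells and at most -1.93 on the macrophage arrays, beside a loess shift of 1.85 on WT replicate 1.

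Across all probes, none passed the threshold between KO and WT macrophages. limma with Benjamini-Hochberg adjustment called 0 of 34919 probes (0%), and 50 had an unadjusted p under 0.05 (0.143%), none of them a ligand probe. With 2 arrays a group and this spread, the test also called none of the large changes put into simulated data, so the count does not show that genes were unchanged. The median of KO minus WT was -0.07 over all probes tested. Of the 8 ligand probes tested, 3 were above 0 and 5 below it. The KO arrays were above both WT arrays for none of them, against 7.28% of all probes tested.

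The other genes of the pathway were taken as the lists of Notch receptors and of the enzymes, adaptors and effectors around them. None passed the test. Of the 4 receptors, which the ligands bind, Notch2 had a KO minus WT of 0.48 (SE 0.50) and Notch1 of 0.11 (SE 0.54), while Notch3 had -0.59 (SE 0.40) and Notch4 -0.27 (SE 0.38). Notch3 read -0.20 and -0.09 in KO, against 0.84 and 0.06 in WT macrophages, so WT replicate 1 again stood highest. All 4 receptors were lower in Dll1-high than in Dll1-low basal cells, by a median of -0.28 beside -0.03 over all probes, with Notch3 at -0.40, Notch4 at -0.32, Notch1 at -0.23 and Notch2 at -0.07. Of all probes compared, 44.6% were above 0. None of the receptors reached 2-fold, and there is no replicate check.

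In KO minus WT, the ubiquitin ligases and epsins that take ligands into the sending cell had 1 of 7 members above 0. The other 6 were below it, with a list median of -0.42 beside -0.07 over all probes tested. The differences beyond 2-fold with the greatest size were those of Neurl1b, a ubiquitin ligase, at -1.23 (SE 1.91), and Epn3, an epsin, at -1.14 (SE 1.18). Neurl1b read 3.23 and 1.20 in KO, against 5.97 and 0.91 in WT macrophages, so WT replicate 1 set its mean. Epn3 was likewise carried by that array, with -2.36 in the first row and 0.09 in the second. Epn2, another epsin, was at -1.13 (SE 0.37, unadjusted p 0.037, limma adjusted p 0.9997). Chosen after its values were seen, it read -1.12 and -0.80 in KO, against 0.46 and -0.14 in WT macrophages. The groups did not overlap, and both rows were below 0, at -1.58 and -0.67. KO arrays below both WT arrays were found for 2 of the 7 members of this list and for 12.8% of all probes tested.

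The 6 tested members of the non-canonical ligand list had 1 above 0 and 5 below it. Their median was -0.63, beside -0.07 over all probes tested. Among them were Mfap5, a microfibril protein, at -1.12 (SE 0.81) and Egfl7, an endothelial secreted protein, at -1.10 (SE 0.86). Mfap5 differed by -2.43 in the first row and 0.19 in the second, and Egfl7 by -1.55 and -0.65. Between the sorted fractions, all 8 measured members of that list were below 0 in Dll1-high minus Dll1-low. Their median was -0.43, beside -0.03 over all probes compared, of which 44.6% were above 0. With 1 array a side, there is no replicate check.

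The proteases of ligand and receptor had 4 of 8 members above 0 and 4 below it in KO minus WT, with a median of 0.07. The Fringe enzymes and the other glycosyltransferases of the EGF repeats had 2 of 6 above 0 and 4 below it, with a median of -0.16. The nuclear effectors and target genes had 8 of 10 above 0 and 2 below it, with a median of 0.12. Over all probes tested the median was -0.07. No member of these lists was 2-fold apart between the sorted fractions.

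The genes whose profile over the 6 arrays was most like that of each ligand were found by Pearson's r. They are a description of 6 points that share slides, rows and the reference RNA. For Dll1 they were Kif1a (r 0.995), N4bp3 (r 0.994) and Akap1 (r 0.994), among 9013 genes compared. For Jag1 they were Dym and Cav2 (r 0.998 each) and Car13 (r 0.997), and for Jag2 they were Plxdc2 and Sh3yl1 (r 0.999 each) and Cbr3 (r 0.998). For Dlk1 they were Gabrr3 and Sh3bp5l (r 0.998 each) and Agap3 (r 0.997), and Gabrr3 read 1.02 on WT replicate 1 and at most 0.14 elsewhere. For Dll3 they were Numb (r 0.986), Cyp2r1 (r 0.982) and Aldh3b3 (r 0.980). For Dll4 they were Gria2 (r 0.987), Olfr598 (r 0.967) and D6Ertd527e (r 0.966), among 18381 genes detected in Cy5 on 2 arrays or more. Gria2 and Olfr598 varied little, with an SD of 0.14 and 0.12 over the arrays. Among the ligands themselves, Jag1 and Jag2 gave r 0.979 and Dll1 and Jag1 r 0.941.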

How the data were processed

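RNA was measured on 6 two-colour Agilent arrays, with the sample in Cy5 and the reference RNA in Cy3, per the labels. The deposited scanner files hold intensity values: spot and local background signals, and processed signals after background subtraction and dye normalization (per the file headers, Feature Extraction 11.0.1.1 and 12.0.2.2, against 11.0 per the submitters' processing notes). Their log ratio column is the log10 of processed red over green signal, per the file headers. The authors' deposited table of values is in log2 ratios of sample over reference, as judged by setting each column against that array's scanner values.

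Median spot signals were corrected with normexp (offset 50) and loess within arrays (R 4.3.3 with limma 3.58.1, files read by data.table version 1.17.8), with control spots at weight 0. Spots marked as outliers by the scanner software (170 to 500 per array) were left out, and spots of a probe were averaged. Gene names came from RefSeq for 27509 probes (matched by accession) and from the array design for 28172, and the names in the files of the basal cells served the macrophage files, whose probes are the same. Where 2 or more of the 4 macrophage arrays had Cy5 well above background, a probe was tested (34919) with limma at 0.05 after Benjamini-Hochberg adjustment (2.19 prior degrees of freedom), without a term for replicate number. In the basal cells, 49669 probes detected in Cy5 on 1 array or both were compared without a test. On simulated data of the same size and spread, the fit returned the size of large changes that had been put in but called none of them at the threshold, so a count of 0 here does not show that genes were unchanged.

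The ligands, gene lists and marker lists were chosen with earlier results of these data known. Every ligand probe and Notch receptor was named. Of the other lists, where no gene passed, the 2 genes furthest apart among those at least 2-fold apart were named, and for each ligand the 3 genes most like it over the arrays, leaving out clone and predicted gene names. Epn2, Cdh5, Tek, Kdr and the other single endothelial, basal and adipocyte markers were named after their values were seen. Alternatives changed the background correction, normalization, channel, filter, probe choice, variance model, replicate block and replicates.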

Additional observations from a re-analysis of the deposited data

How the results depend on the processing

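No probe passed the threshold between KO and WT macrophages under any of the 14 alternatives, while the count at an unadjusted p under 0.05 was 50 as reported, 70 with processed scanner signals, 70 with the authors' deposited table, 164 with Cy5 alone, 230 without the filter on dim probes, and 17 to 6176 when 1 array was left out, the highest without WT replicate 2. With the replicate number as a block, 0 probes passed, 208 had an unadjusted p under 0.05, and no ligand passed. The difference for Dll1 was -0.49 (SE 0.40), since a block cannot move it in this balanced design. The differences of the replicates correlated at 0.575 between genotypes, but 2 pairs are too few to say that the numbers pair the samples. The added alternative without normalization, chosen after seeing the data, gave 0 and 336 probes. Of 84 values for the ligands in these alternatives, 13 changed sign. Part of the 84 could not change: the replicate block, the variance model and the filter leave a difference as it is. So does averaging over probes for Dll4, Jag1 and Jag2, which have a single probe. The processed signals and the authors' deposited table gave nearly the same values, so the 84 are not separate checks. Dll4 was 0.085 without background correction, 0.076 with median centring, 0.27 with Cy5 alone and 0.45 without KO replicate 2. Its sign held with the processed signals and the authors' deposited table, but the difference was -0.61 in each, in place of -0.03. Jag2 was 0.12 with median centring, 0.034 without normalization, 0.54 without KO replicate 1 and 0.42 without WT replicate 2. Dll1 without KO replicate 1 was at 0.24, and at 0.74 without WT replicate 2, Dll3 was -0.15 without KO replicate 1, and Jag1 without KO replicate 2 was at -0.43, and at -0.37 without WT replicate 1. Leaving out 1 array at a time, KO minus WT ranged from -1.72 to 0.74 for Dll1, -0.15 to 0.56 for Dll3, -0.50 to 0.45 for Dll4, -0.43 to 0.47 for Jag1, -0.76 to 0.54 for Jag2 and -2.11 to -0.35 for Dlk1. The causes were not tested. The lowest limma adjusted p over all alternatives was 0.223 for Dlk1 and 0.676 to 0.992 for the others. Median centring moved the median of all probes to 0.39 and no normalization moved it to 0.30, against -0.07. The probes at least 2-fold apart between the sorted fractions numbered 77 as reported (50.6% higher in Dll1-high cells), 2044 with the scanner's processed signals or the authors' deposited value table (32.6% higher) and 63 to 103 otherwise. The higher share was 38.6% with median centring and 32.9% without normalization. The Dll1 difference between the fractions ranged from 0.41 to 0.98 and that of Dll4 from -0.64 to -0.34. Signal close to background limits the second probes of Dll1 and Dll3 and the Dll4 probe.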
